A study of Mus musculus with 12 samples.

Results

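Keratins are the intermediate filament proteins of epithelial cells, and each layer of the skin and its appendages makes its own set of them. The 6 keratin genes described here were chosen by symbol to stand for different layers: Krt15 for basal cells and the hair follicle bulge, Krt1 and Krt10 for the suprabasal layers of the epidermis, Krt6a for the outer root sheath, companion layer and stressed epidermis, and Krt25 and Krt27 for the inner root sheath, the sleeve that guides a growing hair. They are 6 of the 11287 genes with a single symbol on the arrays, and 4 of them are among the 5712 genes that passed a filter on low values. Each gene was read as the median of the log2 intensity over its probe sets.

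The data are 12 Affymetrix Mouse Exon ST arrays from keratinocytes of female mouse back skin at 9.5 weeks of age, a stage at which the study places the follicles in rest (telogen). The 4 groups of 3 arrays each are K14ΔNLef1 CD34+ITGA6+ cells, WT CD34+ITGA6+ cells, K14ΔNLef1 ITGA6+ cells and WT ITGA6+ cells, which the labels call biological replicates. In K14ΔNLef1 mice the promoter of Krt14, which is active in basal keratinocytes, drives a Lef1 protein that lacks the amino terminus with which Lef1 binds β-catenin. Cells were sorted on ITGA6, the integrin α6 of cells at the basement membrane, and on CD34, a surface protein of bulge stem cells. The ITGA6+ gate was negative for CD34 according to the study's methods, so it holds basal keratinocytes from outside the bulge, of the epidermis as well as of the follicle.

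As background, keratins work in pairs of a type I protein (Krt10, Krt15, Krt25 and Krt27) and a type II protein (Krt1 and Krt6a). Basal keratinocytes make Krt5 and Krt14, and they switch to Krt1 and Krt10 as they leave the basement membrane and begin to differentiate. Resting bulge cells are known for Krt15, the inner layer of the bulge and the companion layer for Krt6a, and the inner root sheath of the growing follicle for Krt25, Krt27 and their type II partner Krt71.

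The levels of Lef1 and Cd34 went with the labels of the samples. Lef1 lay between 12.49 and 12.71 on the 6 K14ΔNLef1 arrays, against 5.99 to 7.15 on the 6 WT arrays, and Cd34 averaged 11.40 and 11.81 in K14ΔNLef1 and WT CD34+ITGA6+ cells, against 5.33 and 5.37 in K14ΔNLef1 and WT ITGA6+ cells. Itga6, the antigen of both gates, averaged 10.91 in K14ΔNLef1 and 10.59 in WT CD34+ITGA6+ cells. In ITGA6+ cells it averaged 11.60 in K14ΔNLef1 and 11.69 in WT mice, and it was called lower in CD34+ITGA6+ cells in both genotypes. Krt5 and Krt14, the keratins that define basal cells, lay between 12.22 and 13.02 on all 12 arrays and passed the test in none of the comparisons. The medians of all probe sets on the arrays ran from 7.35 to 7.63, and values near or under these medians are called near background below. In such sorted bulk samples, fewer cells of a type and less RNA per cell cannot be told apart.

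**Figure D1:**
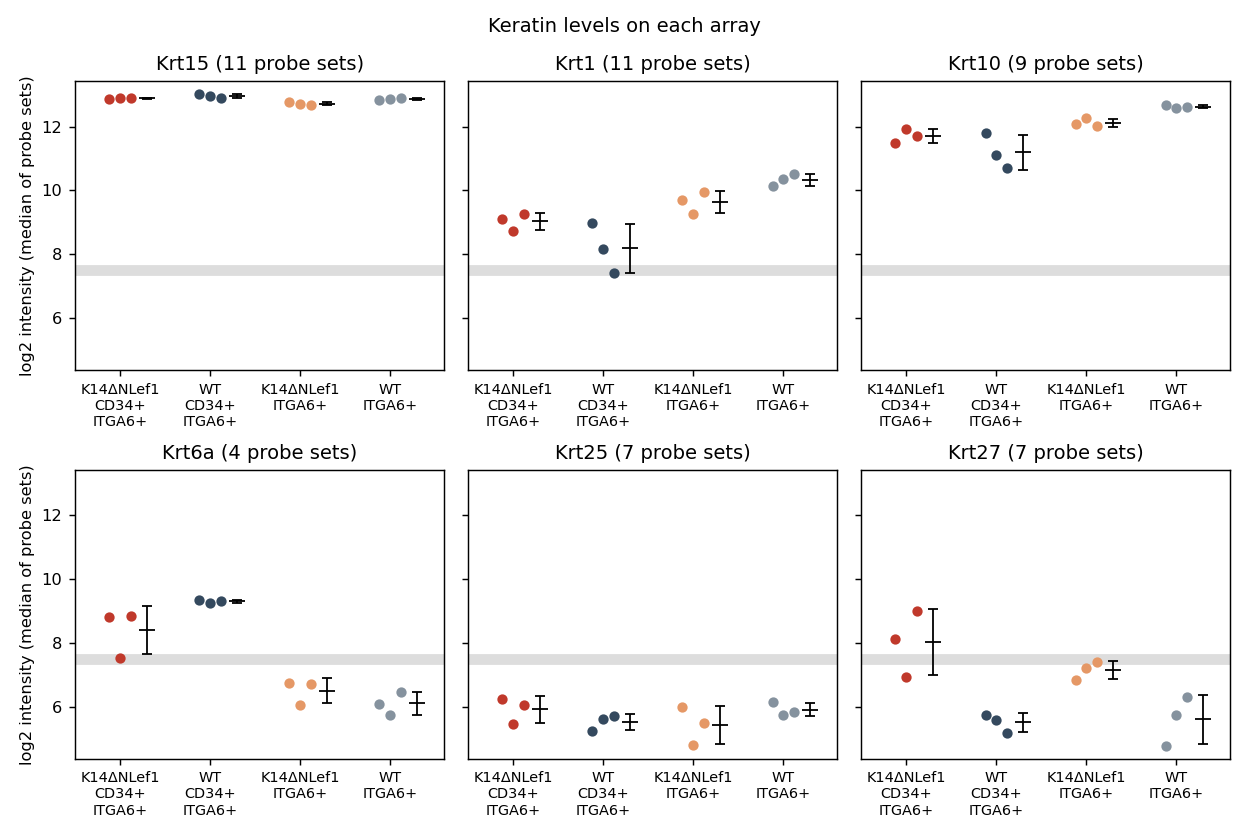
Log2 intensity of the 6 keratins (vertical axis, median over each gene's probe sets) on each of the 12 arrays, by group (horizontal axis). Points are arrays, horizontal ticks with bars are the group mean ± SD (n = 3), and the grey band spans the 12 array medians from 7.35 to 7.63. Krt15 stayed between 12.67 and 13.02, Krt1 and Krt10 were highest in WT ITGA6+ cells, and Krt6a was highest in WT CD34+ITGA6+ cells. Krt27, which missed the filter, was higher in K14ΔNLef1 cells than in WT cells of the same population. All its ITGA6+ arrays were near background, and the genotype difference there was not called.

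Krt1, the type II keratin of the first suprabasal layers, was lower in the CD34+ITGA6+ than in the ITGA6+ population of WT mice, and passed no test between the populations of K14ΔNLef1 mice. Its level was 8.97, 8.17 and 7.41 on the WT CD34+ITGA6+ arrays, against 10.14, 10.35 and 10.52 on the WT ITGA6+ arrays. These groups did not overlap, and the first WT CD34+ITGA6+ array was the highest of its group. The population difference, given as CD34+ITGA6+ minus ITGA6+, was -2.15 ± 0.32 on the log2 scale (SE, adjusted p = 2.63e-04 by limma). In K14ΔNLef1 mice Krt1 stood at 9.11, 8.74 and 9.25 in CD34+ITGA6+ cells, against 9.71, 9.24 and 9.94 in ITGA6+ cells. The K14ΔNLef1 populations overlapped by 1 array, and their difference of -0.60 ± 0.32 did not pass the test (95% confidence interval -1.28 to 0.09, adjusted p = 0.262).

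Krt10, the type I partner of Krt1, had its group means in the same order. WT CD34+ITGA6+ cells had 11.79, 11.10 and 10.71, against 12.68, 12.58 and 12.63 in WT ITGA6+ cells. Again the groups did not overlap, and the spread lay in the CD34+ITGA6+ arrays, whose first array was the highest. The WT population difference was -1.43 ± 0.24 (adjusted p = 6.55e-04). K14ΔNLef1 CD34+ITGA6+ cells had 11.50, 11.92 and 11.69, against 12.08, 12.27 and 12.01 in K14ΔNLef1 ITGA6+ cells. These were all lower than the ITGA6+ arrays, but the difference of -0.42 ± 0.24 was not called (95% confidence interval -0.93 to 0.09, adjusted p = 0.297).

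Krt6a, a type II keratin, was the one keratin of the 6 that was called higher in CD34+ITGA6+ cells, and it was so in both genotypes. K14ΔNLef1 CD34+ITGA6+ cells had 8.82, 7.53 and 8.83, against 6.74, 6.04 and 6.72 in K14ΔNLef1 ITGA6+ cells. WT CD34+ITGA6+ cells had 9.35, 9.26 and 9.31, against 6.08, 5.74 and 6.47 in WT ITGA6+ cells. All 6 ITGA6+ arrays were near background, and the gene passed the filter through the CD34+ITGA6+ arrays alone, so it had to differ between the populations. The differences below are therefore differences of measured intensity and not sizes of a change in RNA, and no fold is given. The population difference was 1.89 ± 0.32 in K14ΔNLef1 mice (adjusted p = 0.00118) and 3.21 ± 0.32 in WT mice (adjusted p = 8.44e-06), and neither pair of groups overlapped.

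Krt15 is widely used as a marker of the bulge, yet on these arrays its level hardly differed between the gates. It had 12.87, 12.89 and 12.90 in K14ΔNLef1 CD34+ITGA6+ cells, against 12.78, 12.70 and 12.67 in K14ΔNLef1 ITGA6+ cells. In WT mice it had 13.02, 12.97 and 12.90 in CD34+ITGA6+ cells, against 12.84, 12.88 and 12.89 in ITGA6+ cells. With the median over probe sets, each CD34+ITGA6+ array lay above each ITGA6+ array of its genotype, but by little. The difference was 0.17 ± 0.15 in K14ΔNLef1 mice (95% confidence interval -0.15 to 0.49, adjusted p = 0.526) and 0.09 ± 0.15 in WT mice (-0.23 to 0.41, adjusted p = 0.730). This SE comes from limma, which draws the spread of a gene toward that of the other genes. The SDs of Krt15 within the groups ran from 0.02 to 0.06. In K14ΔNLef1 mice all 11 probe sets had higher means in CD34+ITGA6+ cells, from 0.14 to 0.36. In WT mice 6 had higher and 5 lower means, from -0.55 to 0.22, and with the median polish the WT difference was 0.0026 and the WT groups overlapped. The highest log2 intensity in the whole table was 14.08, so Krt15 sat near the top of the range, where a difference can be compressed, which was not tested.

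Krt15 was the one of the 8 bulge markers with probe sets that was not called between the populations. The other 7 (Cd34, Lgr5, Lhx2, Nfatc1, Sox9, Fgf18 and Postn) were called higher in CD34+ITGA6+ cells in both genotypes, where 12.9% of all genes tested were called in K14ΔNLef1 mice and 17.2% in WT mice. Cd34, Lgr5 and Fgf18 passed the filter through the CD34+ITGA6+ arrays alone and so had to differ. Sox9 and Postn were above the medians of all 12 arrays. Nfatc1 was under the medians on all K14ΔNLef1 ITGA6+ arrays (6.33 to 6.90), and Lhx2 on all WT ITGA6+ arrays (7.21 to 7.59). The filter therefore favoured a difference of Nfatc1 in K14ΔNLef1 mice and of Lhx2 in WT mice. The differences of the 7 ran from 1.08 ± 0.26 for Sox9, a transcription factor of the outer root sheath and bulge, to 6.07 ± 0.19 for Cd34 in K14ΔNLef1 mice. The markers were listed because they are known for the bulge, and Cd34 was the antigen of the sort.

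Of the 4 keratins that passed the filter, 1 (Krt6a) was called in the population difference of K14ΔNLef1 mice, where 12.9% of the 5712 genes were called, and 3 (Krt6a, Krt1 and Krt10) in that of WT mice, where 17.2% were. Without Krt6a, which the filter took in through the population where it was high, these counts are 0 and 2 of 3. Over all 6 keratins, the population groups did not overlap for 3 in K14ΔNLef1 mice (24.1% of all genes) and for 5 in WT mice (24% of all genes). The 2 population differences have no array in common. The median gene past the filter had a difference of -0.15 in K14ΔNLef1 mice and -0.17 in WT mice, so that the levels of Krt15 lay above, and those of Krt1 and Krt10 below, this general shift.

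**Figure D2:**
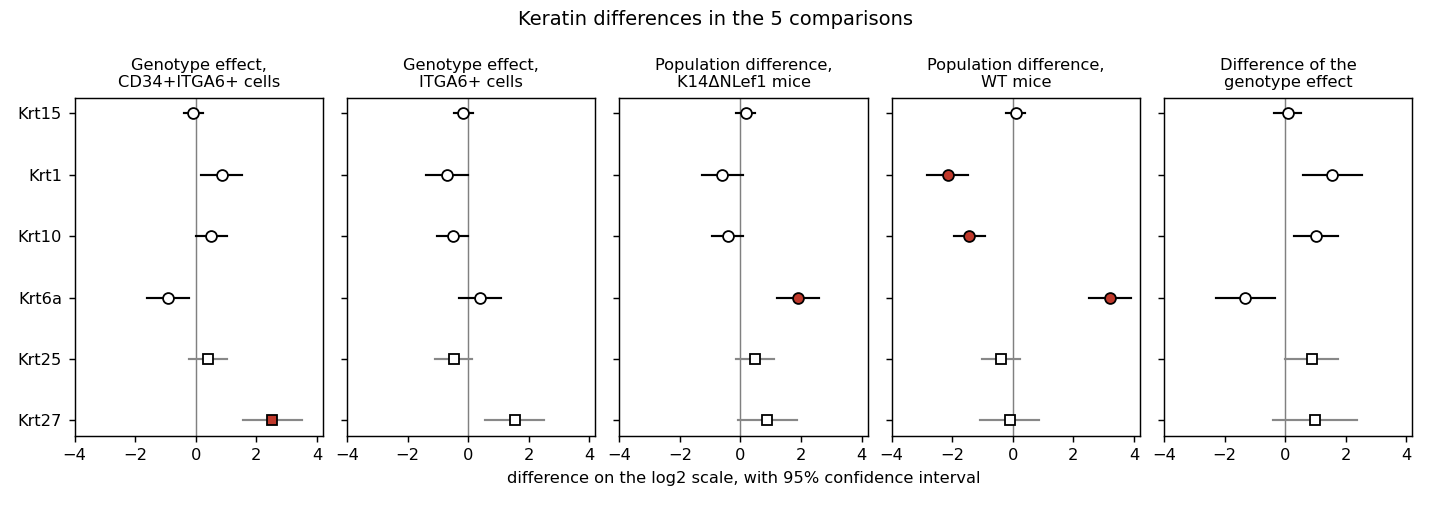
Differences of the 6 keratins (rows) in the 5 comparisons (panels) on the log2 scale, with 95% confidence intervals. Genotype effects are K14ΔNLef1 minus WT, population differences are CD34+ITGA6+ minus ITGA6+, and the last panel is the genotype effect in CD34+ITGA6+ minus that in ITGA6+ cells; red marks an adjusted p under 0.05, and squares mark the 2 genes fitted without the filter. The calls are Krt27 in the first panel (2.52), Krt6a in both population panels (1.89 and 3.21), and Krt1 (-2.15) and Krt10 (-1.43) in WT mice.

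An exon array reads a transcript at several places, and the probe sets of a gene can be compared with each other in direction. In WT mice all 11 probe sets of Krt1 were called lower in CD34+ITGA6+ cells, with differences from -3.64 to -1.05. Of the 9 probe sets of Krt10, all 9 had lower means. The 7 that were called ran from -1.91 to -1.17, and the other 2 had -0.68 and -0.64. All 4 probe sets of Krt6a were called higher, from 1.71 to 5.08. The probe set with 5.08 read 5.13 to 5.36 in WT ITGA6+ cells, which is near background. Another was near background in both WT populations, with 5.47 to 6.45 in CD34+ITGA6+ and 1.98 to 2.15 in ITGA6+ cells. The Krt6a values are thus differences of measured intensity. Across all probe sets with a single symbol, 5.21% were called in this comparison. In K14ΔNLef1 mice 10 of the 11 Krt1 probe sets and all 9 of Krt10 had lower means, none of them called, with extremes of -0.90 and 0.07 for Krt1. All 4 of Krt6a had higher means, from 1.15 to 2.95, and 1 was called, where 3.09% of probe sets were. Probe sets of a gene share arrays and transcripts and are not replicates of each other.

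**Figure D3:**
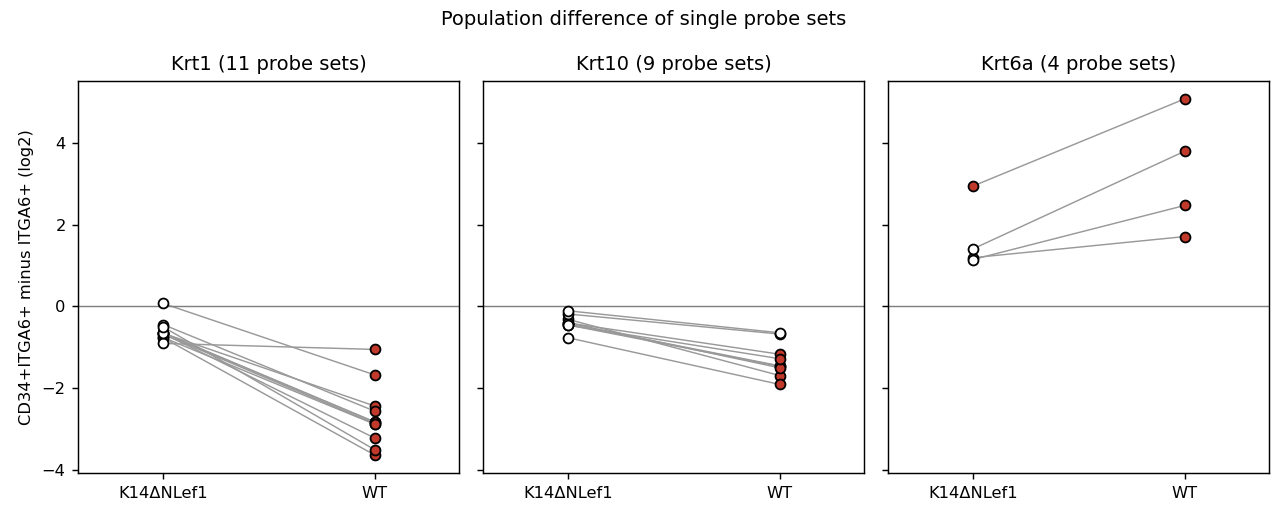
Population difference (CD34+ITGA6+ minus ITGA6+, log2) of each probe set of Krt1, Krt10 and Krt6a, in K14ΔNLef1 mice (left of each panel) and WT mice (right), with lines joining the values of a probe set. Red points had an adjusted p under 0.05. All 11 Krt1, 7 of 9 Krt10 and all 4 Krt6a probe sets were called in WT mice, against 1 probe set, of Krt6a, in K14ΔNLef1 mice.

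Between genotypes, none of the 4 keratins that passed the filter was called by limma. At an unadjusted p under 0.05 there were 2 in each population, Krt1 and Krt6a in CD34+ITGA6+ cells and Krt1 and Krt10 in ITGA6+ cells. In CD34+ITGA6+ cells 1.91% of genes were called, 109 in all, and 572 of the 5712 had an unadjusted p under 0.05. In ITGA6+ cells 5.3% were called and 872 had such a p. The differences of Krt1 and of Krt10 had opposite signs in the 2 populations. In CD34+ITGA6+ cells Krt1 averaged 9.03 ± 0.27 in K14ΔNLef1 mice and 8.18 ± 0.78 in WT mice (SD, n = 3 each), a difference of 0.85 ± 0.32 (95% confidence interval 0.17 to 1.54, adjusted p = 0.305). In ITGA6+ cells it averaged 9.63 ± 0.36 in K14ΔNLef1 mice and 10.34 ± 0.19 in WT mice, a difference of -0.70 ± 0.32 (adjusted p = 0.308). The ITGA6+ groups of the 2 genotypes did not overlap, while the CD34+ITGA6+ groups did.

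Krt10 had an average of 11.70 ± 0.21 in K14ΔNLef1 CD34+ITGA6+ cells and 11.20 ± 0.55 in WT CD34+ITGA6+ cells, which overlapped. The difference was 0.50 ± 0.24 (95% confidence interval -0.01 to 1.01, adjusted p = 0.510). It was 0.80 without the first WT CD34+ITGA6+ array and 0.26 without the third. In ITGA6+ cells it averaged 12.12 ± 0.13 in K14ΔNLef1 mice and 12.63 ± 0.05 in WT mice, without overlap. That difference was -0.51 ± 0.24 (95% confidence interval -1.02 to -0.0012, adjusted p = 0.326).

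The call for Krt1 in CD34+ITGA6+ cells depended on how its probe sets were combined. Of its 11 probe sets, 10 had higher means in K14ΔNLef1 mice, the highest difference being 2.06, and 1 was called (adjusted p = 0.00971), where 0.491% of all probe sets were. The remaining probe set had -0.36. With the mean over probe sets the difference was 1.29 (adjusted p = 0.0260), and with a median polish, chosen after seeing the data, it was 1.47 (adjusted p = 0.0228). Leaving out 1 array at a time with the median, it ran from 0.47 to 1.25 with adjusted p between 0.0539 and 0.671. In ITGA6+ cells all 11 probe sets had lower means in K14ΔNLef1 mice, from -1.35 to -0.41, and none was called.

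The genotype effect on Krt1 was 1.56 ± 0.45 larger in CD34+ITGA6+ than in ITGA6+ cells, and that on Krt10 was 1.02 ± 0.34 larger. Neither difference of effects passed the test (adjusted p = 0.138 and 0.237), and 1.54% of genes did. Without the first WT CD34+ITGA6+ array, the one with the highest Krt1 and Krt10 of its group, the differences were 1.95 and 1.31 and both were called (adjusted p = 0.0214 and 0.0301). Krt1 was also called with the mean over probe sets (2.08, adjusted p = 0.0130) and with the median polish (2.24, adjusted p = 0.0174). All 11 Krt1 and all 9 Krt10 probe sets had the same sign, with 1 call, of Krt1, where 0.201% of probe sets were called.

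Krt6a in CD34+ITGA6+ cells averaged 8.39 ± 0.75 in K14ΔNLef1 mice and 9.31 ± 0.04 in WT mice. No K14ΔNLef1 array reached the WT values, and the second K14ΔNLef1 array, at 7.53, was the lowest. The difference was -0.91 ± 0.32 (95% confidence interval -1.60 to -0.22, adjusted p = 0.257). With the mean over probe sets it was -1.21 and called (adjusted p = 0.0118), and with the median polish it was -1.04 and not called (adjusted p = 0.0505). All 4 probe sets had lower means, from -1.91 to -0.49, and none was called. Without the second K14ΔNLef1 array the difference was -0.48 (adjusted p = 0.596). In ITGA6+ cells, where both genotypes were near background, Krt6a averaged 6.50 ± 0.40 in K14ΔNLef1 mice and 6.10 ± 0.36 in WT mice, with overlap. The effect in CD34+ITGA6+ minus that in ITGA6+ cells was -1.32 ± 0.45, which did not pass the test (adjusted p = 0.264), except with the mean over probe sets (-1.59, adjusted p = 0.0222).

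For Krt15 the genotype effect was -0.08 ± 0.15 in CD34+ITGA6+ cells (95% confidence interval -0.39 to 0.24, adjusted p = 0.955) and -0.15 ± 0.15 in ITGA6+ cells (-0.47 to 0.16, adjusted p = 0.749). In the ITGA6+ populations the 3 K14ΔNLef1 arrays lay below the 3 WT arrays, and all 11 probe sets had lower means in K14ΔNLef1 mice, from -1.06 to -0.02. None of the probe sets was called, where 1.35% of all probe sets were.

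The inner root sheath keratins gave the one genotype call among the 6. Krt27 was above the medians of 2 arrays, both K14ΔNLef1 CD34+ITGA6+ arrays, and so missed the filter, which asked for 3. In the same model fitted to all 11287 genes it was higher in K14ΔNLef1 than in WT CD34+ITGA6+ cells. The levels were 8.13, 6.93 and 9.005 in K14ΔNLef1 CD34+ITGA6+ cells, against 5.74, 5.59 and 5.18 in WT CD34+ITGA6+ cells. The groups did not overlap, and the WT arrays were all near background, so the difference is one of measured intensity and not the size of a change in RNA, and no fold is given. The difference was 2.52 ± 0.45 (95% confidence interval 1.54 to 3.49, adjusted p = 0.0164), in a fit where 1.14% of genes were called. The call was lost without the third WT CD34+ITGA6+ array (2.36, adjusted p = 0.0715), without the first K14ΔNLef1 CD34+ITGA6+ array (2.47, adjusted p = 0.0599) and without the third (2.03, adjusted p = 0.0614).

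In ITGA6+ cells Krt27 had 6.84, 7.20 and 7.39 in K14ΔNLef1 mice, against 4.78, 5.73 and 6.29 in WT mice. The K14ΔNLef1 arrays were all higher, but both groups were near background. The difference of 1.54 ± 0.45 was not called (95% confidence interval 0.57 to 2.52, adjusted p = 0.101, in a fit where 2.88% of genes were called). It was called with the mean over probe sets (1.49, adjusted p = 0.0118) and without the second K14ΔNLef1 CD34+ITGA6+ array, which enters through the shared spread (1.54, adjusted p = 0.0351). The genotype effects in the populations differed by 0.98 ± 0.64 (adjusted p = 0.813). Between populations Krt27 differed by 0.88 ± 0.45 in K14ΔNLef1 mice (adjusted p = 0.330; 1.42 without K14ΔNLef1 CD34+ITGA6+ replicate 2 and 0.39 without replicate 3) and by -0.10 ± 0.45 in WT mice (adjusted p = 0.947), and the sign of the WT difference turned without WT CD34+ITGA6+ replicate 3 or without WT ITGA6+ replicate 3.

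The 7 probe sets of Krt27 did not move alike. In CD34+ITGA6+ cells 2 of them were called, with differences of 4.31 ± 0.46 (adjusted p = 0.00115) and 4.14 ± 0.60 (adjusted p = 0.00915). Another 2 had 2.21 and 2.07 and were not called, and the other 3 lay between 0.11 and 0.17. The first of the called probe sets read 8.09 to 9.99 on K14ΔNLef1 arrays, against 4.42 to 5.19 on WT arrays. In ITGA6+ cells the same 2 probe sets were called, with 2.35 ± 0.46 (adjusted p = 0.0289) and 2.93 ± 0.60 (adjusted p = 0.0351). The others were not called, with differences from -0.09 to 2.09. The second called probe set read 3.46 to 4.63 in WT CD34+ITGA6+ cells. In ITGA6+ cells it read 6.20 to 7.39 in K14ΔNLef1 mice and 3.27 to 5.12 in WT mice, all near background. The values of the called probe sets are thus differences of measured intensity. Which exon each probe set reads was not used here.

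Krt25, which lies close to Krt27 in the same cluster of type I keratin genes, was near background on all 12 arrays. It had 6.22, 5.44 and 6.06 in K14ΔNLef1 CD34+ITGA6+ cells, against 5.23, 5.61 and 5.71 in WT CD34+ITGA6+ cells. In ITGA6+ cells it had 5.998, 4.80 and 5.47 in K14ΔNLef1 mice, against 6.15, 5.74 and 5.82 in WT mice. The genotypes overlapped in both populations. The differences were 0.39 ± 0.29 (adjusted p = 0.829) and -0.48 ± 0.29 (adjusted p = 0.592), and none of the 7 probe sets was called in any comparison.

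**Figure D4:**
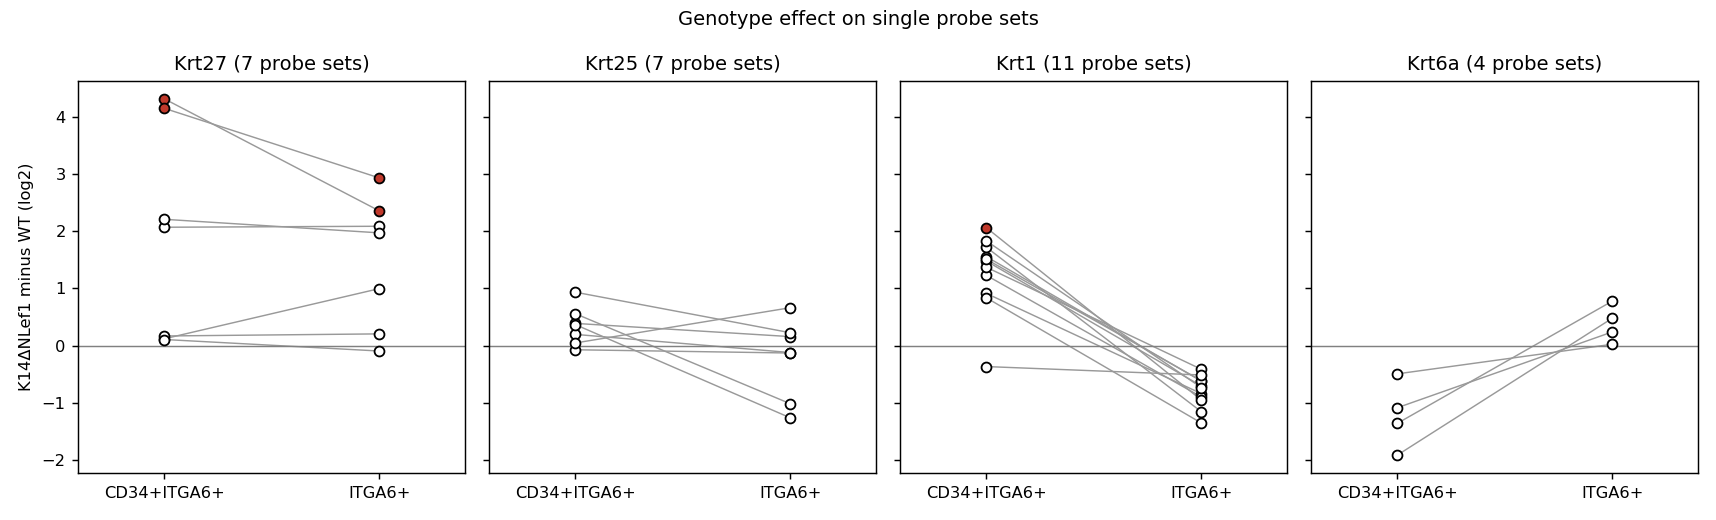
Genotype effect (K14ΔNLef1 minus WT, log2) on each probe set of Krt27, Krt25, Krt1 and Krt6a, in CD34+ITGA6+ cells (left of each panel) and ITGA6+ cells (right), with lines joining the values of a probe set. Red points had an adjusted p under 0.05: 2 probe sets of Krt27 in each population and 1 of Krt1 in CD34+ITGA6+ cells.

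Over the 6 keratins, the genotypes did not overlap for 2 in CD34+ITGA6+ cells (Krt6a and Krt27, against 11.9% of all genes) and for 4 in ITGA6+ cells (Krt15, Krt1, Krt10 and Krt27, against 18.6%). The other inner root sheath genes with probe sets were Krt71, the partner of Krt25 and Krt27, and Padi3, an enzyme that modifies proteins of the sheath and the epidermis. Neither passed the filter or was called. Krt71 lay between 6.26 and 6.69 in K14ΔNLef1 CD34+ITGA6+ cells, against 6.31 to 6.74 in WT CD34+ITGA6+ cells. Of the hair shaft keratins, 8 had probe sets and 3 passed the filter (Krt35, Krt82 and Krt83), none of them called in any comparison. Krt32, a keratin of the hair cuticle that missed the filter, was called lower in K14ΔNLef1 than in WT ITGA6+ cells in the fit without it (-1.58 ± 0.37, adjusted p = 0.0333). In that fit 2.88% of genes were called. Krt32 had 6.92, 8.39 and 8.43 in WT ITGA6+ cells, against 6.77, 6.33 and 5.89 in K14ΔNLef1 ITGA6+ cells. It was above the medians of 2 arrays alone, so the difference is one of measured intensity.

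The promoters of the 3 keratins for which RefSeq promoter sequences were at hand (mouse build GRCm38.p6) are printed because the transgene encodes a DNA-binding factor, and because Krt25 and Krt27 lie close together and differed in their values. Each line is the 250 bases before the annotated start, read on the minus strand, 5′ to 3′, with the motifs found in capitals. They come from chr11:99322952-99323201 for Krt25, chr11:99351119-99351368 for Krt27 and chr11:99389365-99389614 for Krt10.
Krt25: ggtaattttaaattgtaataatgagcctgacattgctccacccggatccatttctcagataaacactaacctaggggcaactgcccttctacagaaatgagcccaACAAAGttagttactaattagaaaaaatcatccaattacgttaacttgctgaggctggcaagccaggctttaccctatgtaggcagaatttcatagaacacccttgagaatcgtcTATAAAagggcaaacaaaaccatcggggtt
Krt27: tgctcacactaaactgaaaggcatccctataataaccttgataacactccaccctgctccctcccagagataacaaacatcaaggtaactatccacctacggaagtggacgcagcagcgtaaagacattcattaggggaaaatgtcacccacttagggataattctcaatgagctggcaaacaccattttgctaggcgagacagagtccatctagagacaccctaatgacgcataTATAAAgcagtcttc
Krt10: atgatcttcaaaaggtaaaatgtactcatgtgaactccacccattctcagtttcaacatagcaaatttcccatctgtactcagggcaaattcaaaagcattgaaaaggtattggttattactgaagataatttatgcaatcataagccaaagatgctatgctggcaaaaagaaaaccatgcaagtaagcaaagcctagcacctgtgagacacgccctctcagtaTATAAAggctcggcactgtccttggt

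Both strands were searched for CTTTGA and CTTTGT, forms of the core that Lef1 and its Tcf relatives bind, for TGANTCA, the AP-1 motif, and for TATAAA, the TATA box. All 3 windows held TATAAA, at 26 to 21 bases before the start in Krt10, 30 to 25 in Krt25 and 15 to 10 in Krt27, as did 12.4% of the 32851 promoter windows of this length. Krt25 alone held a Lef1 or Tcf core, ACAAAG, which is CTTTGT on the opposite strand, 145 to 140 bases before the start. Of all windows, 27.6% held CTTTGA or CTTTGT. No window of the 3 held TGANTCA, which 6.75% of all windows held. A match describes the letters of the window and not a bound site.

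The other genes of the suprabasal programme were set beside Krt1 and Krt10. Krt77, a type II keratin whose gene is the neighbour of Krt1 on chromosome 15, had 9.77, 9.93 and 10.26 in K14ΔNLef1 ITGA6+ cells, against 11.64, 11.59 and 11.33 in WT ITGA6+ cells. It was called lower in K14ΔNLef1 ITGA6+ cells, with a difference of -1.53 ± 0.38 (adjusted p = 0.0305). Between the WT populations it was lower in CD34+ITGA6+ cells, with a difference of -1.76 ± 0.38 (adjusted p = 0.00476). Krt2, the other neighbour of Krt1 and a keratin of the upper layers, was above the median of none of the 12 arrays. It had 6.60 to 7.02 in K14ΔNLef1 CD34+ITGA6+ cells, against 5.33 to 5.52 in WT CD34+ITGA6+ cells, and 7.03 to 7.32 in K14ΔNLef1 ITGA6+ cells, against 5.45 to 6.003 in WT ITGA6+ cells. In the fit without the filter the differences of Krt2 were 1.34 ± 0.19 (adjusted p = 0.00242) and 1.47 ± 0.19 (adjusted p = 5.07e-04), between intensities that are all near background.

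Of 16 non-keratin genes of the suprabasal layers with probe sets, 9 passed the filter. None of the 9 was called between genotypes in CD34+ITGA6+ cells. In ITGA6+ cells, where 5.3% of all genes tested were called, 3 were called higher in K14ΔNLef1 mice: Calml3, a calmodulin-like protein of epithelia, Dsc1, a desmosomal cadherin, and Tgm3, a transglutaminase of the cornified layer and hair. Dsc1 and Tgm3 passed the filter through the 3 K14ΔNLef1 ITGA6+ arrays alone, so they had to be higher there, while Calml3 was above the medians of all 12 arrays. Over all 16 genes, whatever the filter, the mean level ran from 8.24 to 8.36 on the K14ΔNLef1 ITGA6+ arrays, against 7.91 to 8.12 on the WT ITGA6+ arrays. This mean includes Calml3, Dsc1 and Tgm3, so it is not a check independent of these 3 calls. Of the 9 genes past the filter, 8 had higher means in K14ΔNLef1 ITGA6+ cells. Ppl, a plakin described below, had a lower one (9.63 against 10.12).

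Between the populations of WT mice, where 17.2% of genes were called, 3 of the 9 were called lower in CD34+ITGA6+ cells and 2 higher. The lower ones were Calm4, a calcium-binding protein of differentiating keratinocytes (-1.64 ± 0.21), Tgm3 (-1.43 ± 0.27) and Ppl, a plakin that ties keratin to desmosomes (-0.73 ± 0.18). The higher ones were Calml3 (3.34 ± 0.24) and Dmkn, a secreted protein of the upper layers (0.69 ± 0.20). In K14ΔNLef1 mice, where 12.9% of genes were called, 4 were called lower (Calm4, Tgm3, Ppl and Grhl3) and 1 higher (Calml3). As Tgm3 passed the filter through K14ΔNLef1 ITGA6+ arrays alone, it had to be lower in the CD34+ITGA6+ cells of those mice. In WT mice Tgm3 was near background in both populations, with 5.54 to 5.99 in CD34+ITGA6+ and 7.10 to 7.33 in ITGA6+ cells. Its WT difference is therefore one of measured intensity and not the size of a change in RNA.

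The genes that anchor keratin filaments, 8 of which passed the filter, had no genotype call in either population. In WT mice, where 17.2% of genes were called, 3 were lower in CD34+ITGA6+ cells, among them Pkp1, a plakophilin of desmosomes (-1.75 ± 0.20, adjusted p = 2.63e-05), with Ppl and Jup. Dst, a plakin of hemidesmosomes, was higher (1.06 ± 0.20, adjusted p = 0.00180). In K14ΔNLef1 mice, where 12.9% were called, 2 were lower, Pkp1 (-0.87 ± 0.20, adjusted p = 0.00995) and Ppl.

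Markers of other cells were read on the same arrays. The mean level of 10 immune markers, of which 3 passed the filter and none was called between genotypes, ran from 6.59 to 7.30 in K14ΔNLef1 CD34+ITGA6+ cells, against 5.92 to 6.87 in WT CD34+ITGA6+ cells, with overlap. The mean level of 7 sebocyte markers ran from 7.34 to 7.57 in K14ΔNLef1 ITGA6+ cells, against 6.51 to 6.81 in WT ITGA6+ cells. Of these markers 3 passed the filter and 1 (Mgst1) was called higher in K14ΔNLef1 ITGA6+ cells, where 5.3% of genes were called. Of the 7 sebocyte markers, 2 differed most between the ITGA6+ groups. Fabp5, with 1 probe set and not past the filter, averaged 8.05 in K14ΔNLef1 and 5.53 in WT ITGA6+ cells. Mgst1 averaged 8.91 and 6.77. Both genes were near background on the WT ITGA6+ arrays, so these are differences of measured intensity. Scd1 (10.29 against 9.82), Pparg (6.49 against 6.01), Elovl3 (5.80 against 5.59) and Fasn (7.99 against 7.78) were also higher in K14ΔNLef1 ITGA6+ cells, by less. Scd3 was lower there (4.72 against 4.89). Pparg, Elovl3 and Scd3 were near background in both groups. Of 4 junctional zone and duct markers past the filter, 1 (Atp6v1c2) was called higher in K14ΔNLef1 ITGA6+ cells, where 5.3% of genes were called. Atp6v1c2 averaged 8.37 there, against 6.93, near background, in WT ITGA6+ cells. Gata6, Lrig1 and Plet1 had lower means in K14ΔNLef1 ITGA6+ cells. The part of the immune, sebocyte and duct markers in the keratin values was not tested.

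The genes whose levels were most like those of each keratin over the 12 arrays were found by Pearson's r, which here follows the differences between the 4 groups as well as the spread within them. Krt1 was most like Ptgfrn (r = 0.96), Cdk2 (0.95) and Hsdl2 (0.93). Krt10 was most like Ptgs1, a cyclooxygenase (0.95), Krt1 (0.93) and Cdkn1a, an inhibitor of cyclin-dependent kinases (0.92). For Krt6a these genes were Pdzrn3 (0.96), Aspn, a small proteoglycan of the matrix (0.95), and Crispld1 (0.95), and for Krt15 they were Dzip1 (0.95), Kank1 (0.94) and Gm973 (0.90).

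Ordered by level, WT ITGA6+ cells came first for Krt1 and Krt10, then K14ΔNLef1 ITGA6+, K14ΔNLef1 CD34+ITGA6+ and WT CD34+ITGA6+ cells. For Krt1 both K14ΔNLef1 groups overlapped, and so did the CD34+ITGA6+ groups of both genotypes. For Krt10 the CD34+ITGA6+ groups alone overlapped among neighbours in this order. Krt6a ran WT CD34+ITGA6+, K14ΔNLef1 CD34+ITGA6+, K14ΔNLef1 ITGA6+ and WT ITGA6+ cells, the reverse order of Krt1 and Krt10, with overlap between the ITGA6+ groups. Krt27 had both K14ΔNLef1 groups above both WT groups, with overlap within each genotype.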

How the data were processed

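Keratinocytes sorted on CD34 and ITGA6 were profiled on 12 exon arrays, 3 for each of 4 groups taken from the sample titles. A description label calls the CD34+ITGA6+ samples basal and the ITGA6+ samples bulge; the Cd34 values go with the titles. RNA was amplified before hybridisation. The authors deposited linear intensities made with robust multi-array averaging (RMA). Affymetrix Power Tools and build mm9 are also named in the submitters' processing notes; versions are not given in the sources used here. RMA adjusts arrays to each other, so a change shared by most genes is partly removed.

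The log2 of each intensity was taken. The platform annotation gave 109796 of 114330 probe sets a single symbol, and older symbols were updated through RefSeq. Probe sets of a gene were summarised by their median. Genes above the median of all probe sets on at least 3 of the 12 arrays were tested, 5712 of 11287. Arrays have no read depth, so their number limits the precision. One limma model (limma 3.58.1, R 4.3.3) with a mean per group took all 12 arrays, two-sided p-values were adjusted over all genes tested after Benjamini and Hochberg, and a gene was called at an adjusted p under 0.05. The script was tested on simulated data. Krt25 and Krt27 did not pass the filter and were read from the same fit on all genes; single probe sets were fitted in the same way, which was decided after seeing the data.

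Alternatives were quantile normalisation, median centring, the mean or a median polish over probe sets, no filter, a stricter filter, the 6 arrays compared, the replicate number as a block, a variance trend and leaving out each array. Same-numbered arrays of the WT populations deviated together (Pearson's r of their deviations from the group means 0.109 to 0.233), and those of other groups did not in every pair. The members and gene lists were chosen with earlier results of these data known. Named are the 6 keratins, up to 5 called genes of each list and the 3 genes most like each keratin past the filter. Lef1, Cd34 and Itga6 are named too. Krt2, Krt5, Krt14, Krt71 and Padi3 are named beside them as partners or neighbours. Fabp5, Fasn, Scd1, Scd3, Pparg and Elovl3 are named for their part in the mean of the sebocyte markers. Gata6, Lrig1 and Plet1 are named as markers of the same list as Atp6v1c2.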

Additional observations from a re-analysis of the deposited data

How the results depend on the processing

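Each of the 30 keratin differences was recomputed under up to 9 other settings and without each of the 12 arrays in turn. Of these 604 recomputed differences, 589 kept their direction and their side of the threshold. Most of the 30 were not called to begin with, and all recomputations drew on the same 12 arrays. The calls of Krt1, Krt10 and Krt6a between populations were kept in all of them. The mean over probe sets gave calls for Krt1 (1.29) and Krt6a (-1.21) between genotypes in CD34+ITGA6+ cells, Krt27 (1.49) in ITGA6+ cells, and Krt1 (2.08) and Krt6a (-1.59) in the difference of effects. The median polish, added after seeing the data, gave them for Krt1 (1.47 and 2.24). Leaving out 1 array at a time, Krt27 ran from 2.03 to 3.07 in CD34+ITGA6+ cells, losing its call 3 times, and from 1.13 to 1.89 in ITGA6+ cells, gaining it once. Its WT population difference ran from -0.51 to 0.25, and was 0.06 without WT CD34+ITGA6+ replicate 3 and 0.25 without WT ITGA6+ replicate 3. The difference of effects ran from 1.17 to 1.95 for Krt1 and from 0.77 to 1.31 for Krt10.

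Between genotypes in CD34+ITGA6+ cells, the keratins called were 2 with the mean, 2 with the median polish (Krt1 and Krt27, since 5 then passed the filter) and 1 with no filter (Krt27). For the difference of effects they were 2 with the mean, 1 with the median polish, and 0 to 2 with 1 array left out. Over all genes, the CD34+ITGA6+ genotype effect had 177 calls with the mean, 70 with only the 6 arrays compared, and 64 to 117 with 1 array left out. The ITGA6+ effect had 174 with the stricter filter and 169 to 320 with 1 array left out. The population differences had 449 (K14ΔNLef1) and 516 (WT) with the stricter filter, and 461 to 793 in K14ΔNLef1 mice with 1 array left out. The difference of effects had 149 with the mean, 49 with the stricter filter and 52 to 76 with 1 array left out. Which step caused these changes was not tested. With the replicate number as a block no keratin call changed (Krt1 between the WT populations had an adjusted p of 5.71e-04), and 1024 genes were called there. Quantile normalisation moved the median gene by 0.11 in the WT population difference.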
